A study of Homo sapiens with 6 samples.

Results

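The clustered replication-dependent histone genes encode the core histones H2A, H2B, H3 and H4 and the linker histone H1 that cells load onto DNA as it is copied. They were taken as the protein-coding rows of the deposited count table whose symbols name a clustered H1 (H1-1 to H1-6), H2A, H2B, H3 or H4 gene. The rule found 64 genes among the 25336 of the table, made up of 5 H1, 16 H2A, 18 H2B, 11 H3 and 14 H4 genes. The study, whose title concerns pristimerin, erastin and ferroptosis in acute myeloid leukaemia cells, sequenced poly(A)-selected RNA of THP-1, an established human line of monocytic leukaemia. The groups used here are 3 libraries of THP-1 cells treated with pristimerin, a plant triterpenoid, and 3 libraries of THP-1 cells labelled as control. The labels of these 6 libraries give no dose, no time and no erastin, and do not say whether the replicates came from separate cultures. The p-values below therefore reflect only how these libraries scatter, a scatter that may be technical.

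Nucleosomes are built from DNA wrapped around H2A, H2B, H3 and H4, and H1 binds where the DNA enters and leaves. Each of these proteins is made from several related genes. The genes sit together in clusters, so that their RNAs can be produced in bulk while DNA is replicated. The RNAs are unusual in animals: they normally carry no poly(A) tail and end instead in a short stem-loop that the protein SLBP binds. A minority of their RNA reads past the stem-loop and is polyadenylated, which is known for several of the genes in differentiated or non-dividing cells. Poly(A) selection therefore leaves out most histone RNA, and the counts below describe the part that was retained. A change in a gene's RNA and a change in the polyadenylated share of that RNA cannot be told apart in such libraries.

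The stem-loop is shown first because it is the feature that sets these RNAs apart from others. It was searched in the spliced transcripts of GENCODE release 29 as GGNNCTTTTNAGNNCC with complementary arms, on the sense strand, which gives a stem of 6 base pairs and a loop of 4 bases. A match was present in the annotated transcripts of 26 of the 60 members with a transcript, against 12 of 58616 other genes (0.0205%). The other genes are all those whose identifiers are not a member's. Clustered histone genes absent from the member rows, or listed under another identifier, may be among them. The absence of a match says only that the letters are not in the annotated transcript, which for many members, H1-2 among them, may end before the stem-loop. There were 4 kinds, shown here with 5 bases on each side and the stem-loop in capitals. The first occurred in 14 genes of the H2A, H2B and H3 classes, the second in 4 H2B and H3 genes, and the last 2 in 5 and 3 H4 genes.

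H2BC21: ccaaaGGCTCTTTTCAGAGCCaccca
H2BC4: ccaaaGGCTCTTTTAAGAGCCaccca
H4C8: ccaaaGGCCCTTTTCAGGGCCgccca
H4C14: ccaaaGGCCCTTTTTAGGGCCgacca

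In 19 members at least 1 annotated transcript ran more than 200 bases past the stem-loop, as a polyadenylated form does. For H2BC21 the annotation ran 1729 bases past it, for H2BC9 1640 and for H2AC6 1128, whereas for H2BC4 it ran 116. These distances come from the GENCODE transcripts, and the annotation behind the deposited counts may differ. The H2BC9 transcript is 2060 bases long there, but the feature length implied by its deposited values is 462 bases. The H2BC9 counts therefore cannot cover the whole stretch past the stem-loop. The windows above are DNA letters of the transcript, 5′ to 3′.

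The start-site regions of 6 of the 8 genes that passed the test are shown because several of them lie between 2 histone genes that are read in opposite directions. Each covers 250 bases before to 50 after the annotated start (RefSeq, GRCh38.p14), on the gene's own strand, 5′ to 3′. Capitals mark matches, on either strand, to ATTTGCAT (the octamer bound by Oct factors), TATAAA (the TATA box) and CCAAT (the CCAAT box). No match of 1 motif overlapped a match of another, but TATAAA and its reverse complement overlap within TTTATAAA in H2BC12 and H2BC11. H2BC12 is at chr6:27146809-27147108 (minus), H2BC11 at chr6:27132746-27133045 (minus), H2BC4 at chr6:26123877-26124176 (minus), H2BC21 at chr1:149886633-149886932 (minus), H2BC9 at chr6:26251364-26251663 (plus) and H1-2 at chr6:26056421-26056720 (minus).

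H2BC12: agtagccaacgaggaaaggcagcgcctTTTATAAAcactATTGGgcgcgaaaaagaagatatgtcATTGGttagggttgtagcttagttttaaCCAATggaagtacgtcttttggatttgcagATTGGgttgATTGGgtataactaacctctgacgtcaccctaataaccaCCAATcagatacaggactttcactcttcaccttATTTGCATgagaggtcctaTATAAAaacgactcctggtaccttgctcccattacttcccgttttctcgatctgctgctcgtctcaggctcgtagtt
H2BC11: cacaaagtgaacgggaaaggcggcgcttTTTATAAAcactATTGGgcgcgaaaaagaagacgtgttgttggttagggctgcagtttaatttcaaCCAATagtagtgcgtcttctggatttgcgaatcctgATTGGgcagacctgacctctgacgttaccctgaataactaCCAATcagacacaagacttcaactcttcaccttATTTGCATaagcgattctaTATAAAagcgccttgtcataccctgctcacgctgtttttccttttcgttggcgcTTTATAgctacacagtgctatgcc
H2BC4: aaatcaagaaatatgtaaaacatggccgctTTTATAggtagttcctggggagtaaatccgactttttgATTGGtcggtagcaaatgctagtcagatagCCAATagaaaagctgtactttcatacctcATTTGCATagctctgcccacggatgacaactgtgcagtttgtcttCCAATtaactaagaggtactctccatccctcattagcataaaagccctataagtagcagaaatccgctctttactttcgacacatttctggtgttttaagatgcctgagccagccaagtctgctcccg
H2BC21: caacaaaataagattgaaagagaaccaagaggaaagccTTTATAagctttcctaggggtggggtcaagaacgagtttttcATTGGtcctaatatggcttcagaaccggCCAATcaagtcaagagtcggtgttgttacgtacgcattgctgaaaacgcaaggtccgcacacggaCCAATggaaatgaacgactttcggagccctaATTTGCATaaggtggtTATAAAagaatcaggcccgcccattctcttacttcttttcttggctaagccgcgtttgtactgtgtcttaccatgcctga
H2BC9: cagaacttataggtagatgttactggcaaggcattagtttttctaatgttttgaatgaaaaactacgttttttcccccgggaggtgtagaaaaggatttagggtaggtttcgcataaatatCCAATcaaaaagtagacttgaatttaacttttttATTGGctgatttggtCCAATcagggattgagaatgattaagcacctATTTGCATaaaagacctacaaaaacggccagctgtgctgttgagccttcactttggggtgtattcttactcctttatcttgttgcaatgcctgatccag
H1-2: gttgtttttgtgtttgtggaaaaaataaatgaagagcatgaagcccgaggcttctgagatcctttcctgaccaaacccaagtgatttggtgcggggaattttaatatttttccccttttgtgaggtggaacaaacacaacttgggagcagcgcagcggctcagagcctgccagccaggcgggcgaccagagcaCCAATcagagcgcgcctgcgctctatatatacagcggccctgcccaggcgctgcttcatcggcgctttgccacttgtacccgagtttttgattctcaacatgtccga

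A start-site region was at hand for 58 of the 64 members. A member was counted once if any of its regions matched, whereas all 35116 regions were counted singly. The percentages below are therefore not in quite the same unit. H2BC12 has 2 regions, of which 1 is shown. The octamer was present in 23 of the 58 (39.7%), against 1.77% of all 35116 start-site regions of the same length. By class it was present in 10 of 15 H2A and 13 of 17 H2B regions, and in 0 of 5 H1, 0 of 9 H3 and 0 of 12 H4 regions. TATAAA was present in 37 of 58 (63.8%) against 11.5% of all regions, and CCAAT in 49 of 58 (84.5%) against 34.6%. CCAAT was in every H1, H2A, H2B and H3 region and in 3 of 12 H4 regions. The octamer was present in 5 of the 6 genes that rose and in both genes that fell. Because both strands were searched, neighbouring genes read in opposite directions can share a match. The only octamer of H2AC20, which fell, is the same site as that of H2BC21, which rose. The genes counted with a match, here and by class, are therefore not all separate sites. These matches describe the letters of the windows and say nothing of which factors were bound.

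The 6 libraries held 24323627 to 30568593 counts with pristimerin and 19057219 to 27880414 in controls, so that 3 counts correspond to 0.0981 to 0.157 counts per 1000000 counts of the library (CPM). Differences between the groups were tested with edgeR's quasi-likelihood test on the deposited counts of all 15305 genes that passed a filter on low counts. Over these genes 2216 (14.5%) were higher and 2313 (15.1%) lower with pristimerin at an adjusted p under 0.05, 29.6% in either direction, and the median log2 fold change was -0.01. Scaling by library totals in place of TMM gave 1389 higher and 3221 lower, and upper-quartile scaling 1523 and 3052. On principal component analysis the leading axis (56.7% of the variance) separated the groups, and the next (13.1%) set replicate 2 of each group apart from the others. Summed levels of 10 monocytic markers were 2140 to 2160 CPM with pristimerin and 2010 to 2200 CPM in controls, although CD14 and CD68 averaged under 1 CPM in both groups. LYZ made up most of that sum, at 1590 ± 13 CPM with pristimerin and 1430 ± 100 CPM in controls (SD, n = 3 each). Of the 10, 2 fell by edgeR, ITGAM with a log2 fold change of -0.71 (adjusted p 0.00014) and FCGR1A with one of -0.33 (adjusted p 0.0059). Their part in the results was not tested. Summed markers of T cells, erythroid cells, epithelial cells and fibroblasts did not exceed 0.226 CPM in any library, and 4, 4, 3 and 3 of the 5 in each list, in that order, are not among the table's rows. Those of B cells summed to 7.23 to 7.41 CPM with pristimerin and 6.25 to 6.61 CPM in controls, and the part of these in the results was not tested either.

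Histone RNA of these genes made up a small part of the libraries, and more of it was counted with pristimerin. The 64 members together had 2589, 1996 and 2076 counts in the pristimerin libraries and 1640, 1582 and 1314 in the control libraries. Relative to unscaled library totals, which all sums use, this was 84.7, 75.1 and 85.3 CPM with pristimerin, against 61.7, 56.7 and 69.0 in controls. Every pristimerin library lay above every control library. The means were 81.7 ± 5.8 and 62.5 ± 6.1 CPM (SD, n = 3 each), a ratio of 1.31, which is given as a description with no test. In bulk RNA, more cells that express these genes and more RNA per cell cannot be told apart. The 15 genes of 22 listed for replication-independent histones that the table holds, whose RNAs are polyadenylated as a rule, summed to 2620 to 2700 CPM with pristimerin and 2550 to 2590 CPM in controls.

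The difference lay in the H2B and H1 sums, and most of it in 1 gene of each, H2BC12 and H1-2. H2B genes summed to 41.9, 37.3 and 40.6 CPM with pristimerin and to 25.5, 21.6 and 29.0 in controls, a ratio of 1.57. H1 genes summed to 18.7, 17.8 and 19.8 with pristimerin and to 14.1, 13.1 and 13.0 in controls, a ratio of 1.4. In both classes the groups did not overlap. H2BC12 alone gave 747, 583 and 587 of the 1280, 992 and 987 H2B counts with pristimerin. In controls it gave 323, 258 and 250 of 677, 602 and 552. H1-2 gave nearly all H1 counts. These sums therefore do not show a rise of either class as a whole. The other 3 classes did overlap: H2A averaged 13.8 ± 1.5 and 14.0 ± 1.3, H3 1.88 ± 0.27 and 2.13 ± 0.16, and H4 7.35 ± 1.2 and 7.61 ± 1.5 CPM with pristimerin and in controls (SD, n = 3 each). A pair of genes, H2BC12 and H1-2, supplied 50.9, 52.6 and 51.1% of all member counts with pristimerin and 42.0, 39.3 and 37.4% in controls. Without this pair the other 62 members averaged 39.6 ± 3.5 CPM with pristimerin and 37.8 ± 4.7 in controls (SD, n = 3 each), and the groups overlapped.

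**Figure D1:**
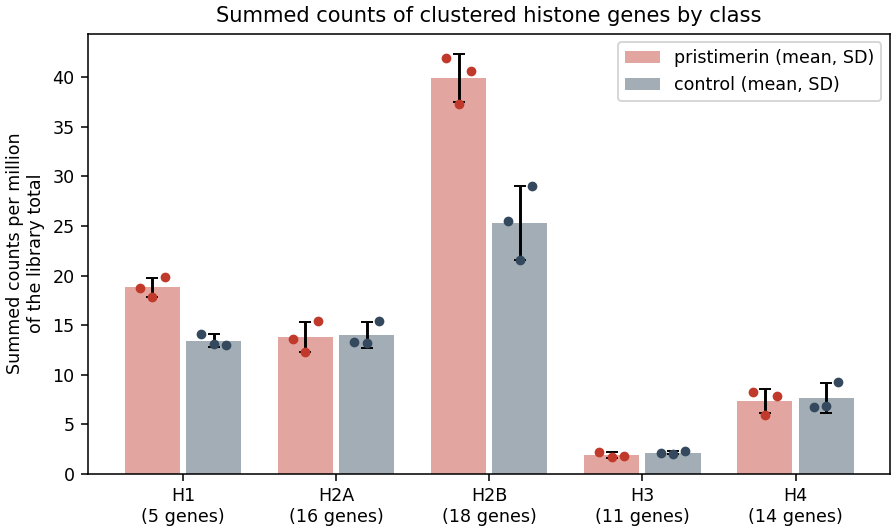
Summed CPM of the library total for the 5 histone classes, pristimerin left of control; bars are means, error bars SD and points the 3 libraries of each group. The groups stand apart for H2B and H1 and overlap for H2A, H3 and H4.

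Single members were mostly near the limit of detection. Of the 64, 42 did not pass the filter on low counts, with 1 to 67 counts over the 6 libraries, and 28 of the 64 had fewer than 30 counts in all. The 42 untested members summed to 5.71 ± 0.16 CPM with pristimerin and 5.93 ± 1.2 in controls (SD, n = 3 each). In 6 members 1 of the groups had no count at all, and 13 members had fewer than 10 counts over the 6 libraries. Fitted without the filter, edgeR called 0 of the 42, and 2 had an unadjusted p under 0.05. On the log2 FPKM scale limma called 3 of them, H2AC4 higher and H2AC13 and H3C13 lower, at adjusted p of 0.01 to 0.023; these were singled out after their values were seen. Of the 22 that were tested, 6 rose, 2 fell and 14 were not called by edgeR's quasi-likelihood test with Benjamini-Hochberg adjustment over all genes, where 14.5% of all genes rose, 15.1% fell and 29.6% did either. The median log2 fold change of the 22 was 0.23, beside -0.01 over all genes, with 14 values above 0 and 8 below. Leaving out any 1 library other than pristimerin replicate 1 moved this median by over 1.5 times, with 24 to 26 members then tested: it was 0.08 without control replicate 1, 0.12 without control replicate 2 and 0.10 without pristimerin replicate 3, and 0.45 without control replicate 3 and 0.38 without pristimerin replicate 2. It was 0.02 to 0.05 on the log2 FPKM scales, where 50 members were tested. The groups did not overlap in 9 of the 22, upwards in 7 and downwards in 2, against 43.3% of all genes tested in either direction. Of the 4890 tested genes with a mean under 5 CPM, 3.68% rose and 15.7% fell, with a median log2 fold change of -0.21, and of the 19 tested members under that level 4 rose and 2 fell.

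**Figure D2:**
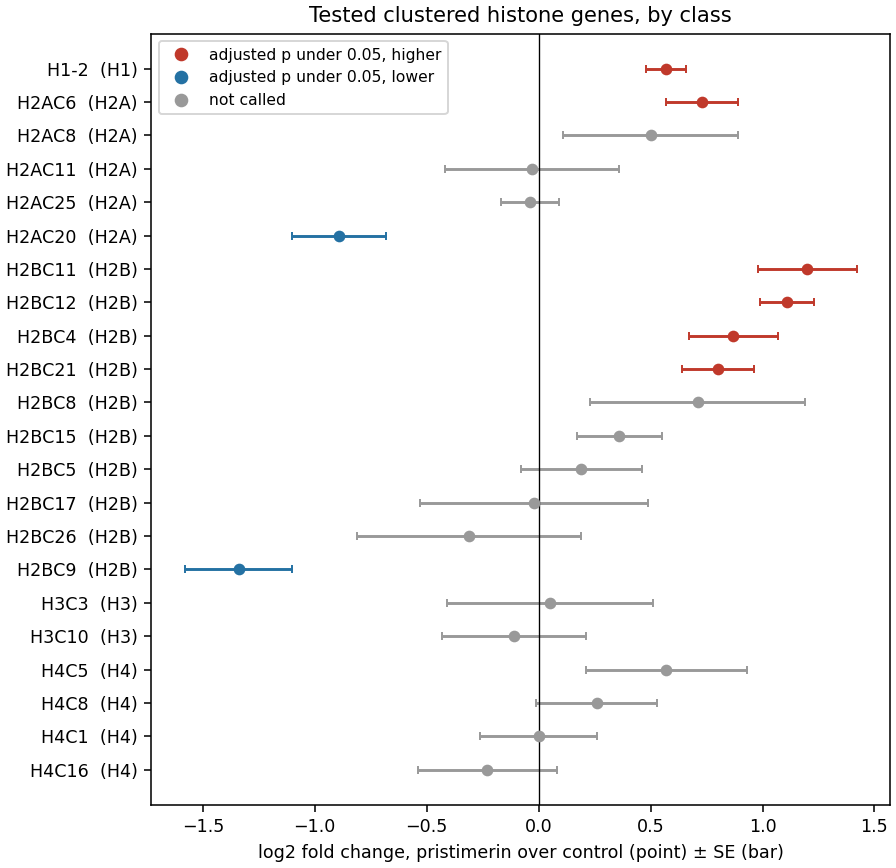
Log2 fold change of pristimerin over control for the 22 tested members, ordered by class; points are estimates and bars 1 SE, red for the 6 that rose, blue for the 2 that fell and grey for the 14 not called. H2B holds both the highest value (H2BC11, 1.20) and the lowest (H2BC9, -1.34).

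Per length, the gene with the highest level was H2BC12, with a mean of 35.4 FPKM over the 6 libraries in the deposited values (44.3 to 49.4 FPKM with pristimerin, 18.7 to 26.5 FPKM in controls). H1-2 followed with a mean of 21.7 FPKM (24.0 to 26.7 FPKM with pristimerin, 17.3 to 18.8 FPKM in controls). These levels of the pair did not overlap with pristimerin but did in controls. H4C1 came next with a mean of 8.49 FPKM (4.58 to 10.99 FPKM with pristimerin, 6.93 to 12.4 FPKM in controls). H2BC9 had a mean of 4.93 FPKM (2.03 to 3.74 FPKM with pristimerin, 5.59 to 8.06 FPKM in controls) and H2AC20 of 3.89 FPKM (2.38 to 3.00 FPKM with pristimerin, 4.72 to 5.95 FPKM in controls). H2AC25 had a mean of 3.1 FPKM and lay between 2.66 and 3.38 FPKM in every library. With pristimerin the levels of H2BC9, H2AC20 and H2AC25 overlapped and lay below those of H4C1. In controls H2BC9 overlapped both H4C1 and H2AC20, and H2AC25 lay below all of them. The highest H3 gene, H3C3, had a mean of 0.776 FPKM (0.464 to 0.942 FPKM with pristimerin, 0.517 to 1.19 FPKM in controls).

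Among H2B genes, H2BC12 (ENSG00000197903, chr6:27146361-27146855 in hg38, minus strand) had the highest level and its counts more than doubled. It had 747, 583 and 587 counts with pristimerin and 323, 258 and 250 in controls. The scaled levels were 24.9, 22.5 and 24.9 CPM against 11.9, 8.98 and 12.9 CPM in controls. All 3 pristimerin libraries lay above all control libraries, with means of 24.1 ± 1.4 and 11.2 ± 2.0 CPM (SD, n = 3 each). The log2 fold change was 1.11 (SE 0.12), a 2.16-fold rise, with an adjusted p of 2.2e-06 by edgeR's quasi-likelihood test.

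H2BC11 (ENSG00000124635, chr6:27125897-27132795, minus strand), which encodes another H2B copy in the same stretch of chromosome 6, rose most among the members. It had 78, 53 and 54 counts with pristimerin and 30, 30 and 16 in controls. The pristimerin libraries, at 2.31 ± 0.28 CPM, did not overlap the controls, at 0.991 ± 0.14 CPM (SD, n = 3 each). The log2 fold change was 1.20 (SE 0.22) with an adjusted p of 0.00057 by edgeR.

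H2BC4 (ENSG00000180596, chr6:26114873-26123926, minus strand) had 73, 75 and 50 counts with pristimerin and 39, 36 and 27 in controls. All pristimerin libraries were higher, and the log2 fold change was 0.87 (SE 0.20) with an adjusted p of 0.0039 by edgeR. H2BC21 (ENSG00000184678, chr1:149884459-149886682, minus strand), on chromosome 1, had 140, 117 and 84 counts with pristimerin and 67, 63 and 53 in controls. The groups did not overlap, at 4.25 ± 0.6 and 2.46 ± 0.27 CPM with pristimerin and in controls (SD, n = 3 each). Its log2 fold change was 0.80 (SE 0.16) with an adjusted p of 0.0015 by edgeR.

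H2BC9 (ENSG00000275713, chr6:26251614-26252075, plus strand) moved the other way and fell most among the members. It had 33, 25 and 42 counts with pristimerin and 96, 72 and 71 in controls. The highest pristimerin library, at 1.78 CPM, was below the lowest control library, at 2.51 CPM. The log2 fold change was -1.34 (SE 0.24) with an adjusted p of 0.00044 by edgeR. The other 5 tested H2B genes were not called. H2BC15 had 67, 65 and 61 counts with pristimerin and 44, 57 and 41 in controls, and its scaled levels of 2.23 to 2.59 and 1.61 to 2.12 CPM did not overlap. Its log2 fold change of 0.36 (SE 0.19) had an adjusted p of 0.16 by edgeR, but it was called with cyclic loess scaling (0.54, adjusted p 0.039); it was singled out after its values were seen.

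Among H2A genes, 1 rose and 1 fell. H2AC6 (ENSG00000180573, chr6:26124145-26139116, plus strand) had 114, 94 and 104 counts with pristimerin and 62, 67 and 49 in controls. Its levels of 3.95 ± 0.41 and 2.38 ± 0.13 CPM with pristimerin and in controls did not overlap (SD, n = 3 each). The log2 fold change was 0.73 (SE 0.16) with an adjusted p of 0.0022 by edgeR. H2AC20 (ENSG00000184260, chr1:149886918-149887411, plus strand) had 36, 33 and 36 counts with pristimerin and 63, 65 and 56 in controls. Every pristimerin library was lower, with an estimate of -0.89 on the log2 scale (SE 0.21) and an adjusted p of 0.0036 by edgeR. H2AC25, the H2A gene with the highest CPM, had 5.5, 5.06 and 6.4 CPM with pristimerin and 5.61, 5.75 and 6.15 CPM in controls. Its groups overlapped, with a log2 fold change of -0.04 (SE 0.13).

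The linker histone gene H1-2 (ENSG00000187837, chr6:26055740-26056470, minus strand) supplied nearly all H1 counts. It had 570, 466 and 474 counts with pristimerin and 365, 364 and 241 in controls. The scaled levels were 19, 18 and 20.1 CPM with pristimerin and 13.4, 12.7 and 12.4 CPM in controls, with no overlap. The log2 fold change was 0.57 (SE 0.09), a 1.48-fold rise, with an adjusted p of 0.00023 by edgeR. The other 4 H1 genes had at most 14 counts each over the 6 libraries and were not tested.

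None of the 6 tested H3 and H4 genes was called by edgeR, 0 of them had an unadjusted p under 0.05, DESeq2 called 0, and the smallest adjusted p by edgeR was 0.25. H4C1, with the highest level per length of these, had 135, 49 and 87 counts with pristimerin and 74, 80 and 95 in controls. Its levels were 4.5, 1.89 and 3.69 CPM with pristimerin and 2.71, 2.79 and 4.91 CPM in controls. The groups overlapped, with means of 3.36 ± 1.3 CPM with pristimerin and 3.47 ± 1.2 CPM in controls (SD, n = 3 each). Its log2 fold change was 0.00 with an SE of 0.26. H3C3 had 14, 6 and 10 counts with pristimerin and 9, 7 and 11 in controls, with a log2 fold change of 0.05 (SE 0.46). This SE is close to the whole change of H1-2 (0.57), so a change of that size was not detectable in H3C3. H4C5 had an estimate of that same size, 0.57 (SE 0.36), and was not called (adjusted p 0.25 by edgeR). The others were H4C8 at 0.26 (SE 0.27), H4C16 at -0.23 (SE 0.31) and H3C10 at -0.11 (SE 0.32). The lack of calls therefore does not show that these genes were unchanged.

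**Figure D3:**
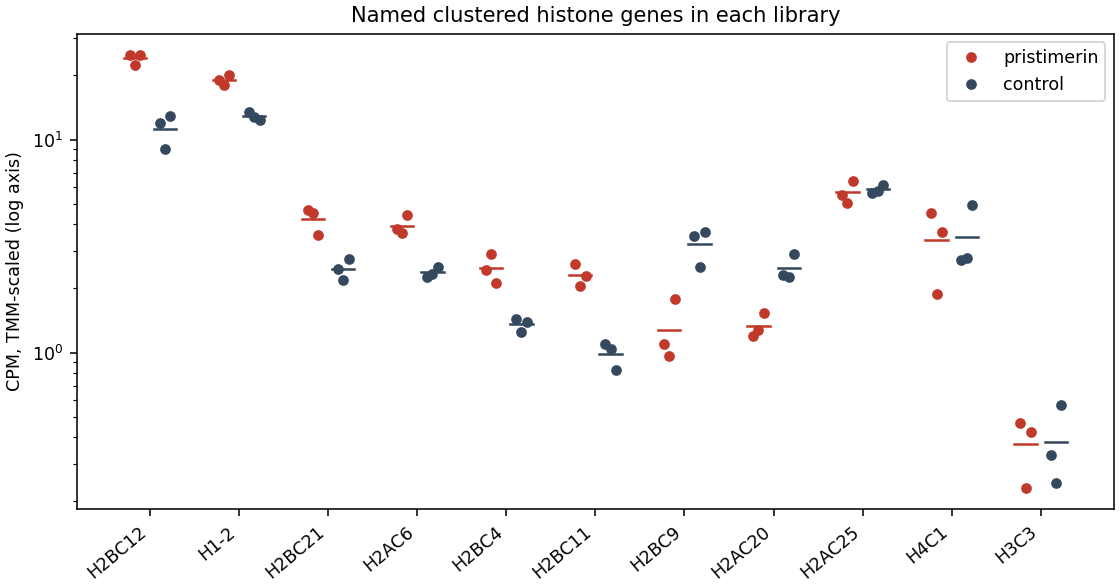
TMM-scaled CPM on a log axis for 11 members in each library, pristimerin left of control; short lines are group means. The first 6 genes from the left are higher in all pristimerin libraries, H2BC9 and H2AC20 are lower in all of them, and H2AC25, H4C1 and H3C3 overlap.

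The calls of H2BC12 and H1-2 were kept in all 19 alternative analyses and those of the other 6 genes in all 18 that tested them. Adjusted p ranged up to 0.049, for H2BC4. Genes of a class resemble each other in sequence, to a degree that was not measured here. The way reads that match several members were assigned is not given in the sources used here. Counts of single members may therefore include reads of others. The libraries were made to keep the strand, but whether counting used it is not given. None of the 8 called genes overlapped another annotated gene that reached 20% of its level.

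**Figure D4:**
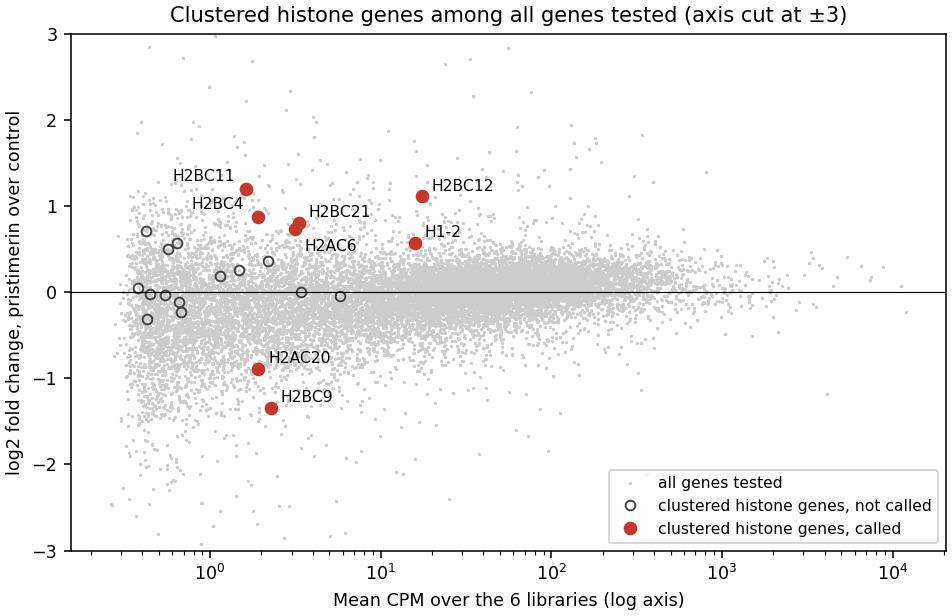
Log2 fold change of pristimerin over control against mean CPM over the 6 libraries (log axis) for all 15305 tested genes in grey, with the called members as filled and the other members as open circles. Points beyond ±3 are not drawn, and 19 of the 22 members lie below 5 CPM, where the grey points scatter widely.

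The members fall into 3 stretches with more than a few genes (of all genes tested anywhere, 14.5% rose and 15.1% fell). The counts of calls in each stretch are small and are given as a description. The stretch from 26020451 to 26285638 on chromosome 6 holds 29 members, of which 11 were tested, 3 rose (H1-2, H2BC4, H2AC6) and 1 fell (H2BC9). The stretch from 27125897 to 27893891 on chromosome 6 holds 21 members, of which 6 were tested, 2 rose (H2BC11, H2BC12) and 4 were not called. The stretch from 149782689 to 149887965 on chromosome 1 holds 10 members, of which H2BC21 rose and H2AC20 fell, and no other was tested. Of the remaining 4, the pair H2AC25 and H2BC26 lies further along chromosome 1, H4C16 lies on chromosome 12 and H2BC12L on chromosome 21, the last 2 outside the clusters. H2AC25, H2BC26 and H4C16 were not called by edgeR, and H2BC12L, with 1 count, was not tested.

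Many H2A and H2B genes stand head to head and share the DNA between their starts. Pairs of members with starts up to 1000 bases apart on opposite strands numbered 13. Of these, 11 were of an H2A and an H2B gene, with gaps of 169 to 250 bases, and 2 of an H3 and an H2B gene, with gaps of 318 and 978 bases. In 5 pairs, all of an H2A and an H2B gene, both genes were tested. The comparison of pairs was made after the values of the single genes were seen. The H2BC21 and H2AC20 pair, whose gap of 235 bases is contained in the H2BC21 sequence above, moved in opposite directions. H2AC20 had 0.257, 0.282 and 0.429 counts for each H2BC21 count with pristimerin, against 0.94, 1.03 and 1.06 in controls. The mean log2 ratio was -1.67 with pristimerin and 0.01 in controls, a difference of -1.68, with a p of 0.1 by a two-sided exact permutation test, the smallest that 3 against 3 libraries allow. H2BC21 was higher and H2AC20 lower in every pristimerin library, so the ratio had to separate and this p was fixed beforehand. It therefore adds nothing to the results of the single genes. A p under 0.05 cannot be reached in this design.

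The H2BC11 and H2AC11 pair, with a gap of 247 bases, also had a lower ratio in every pristimerin library. H2AC11 had 0.205, 0.151 and 0.352 counts for each H2BC11 count with pristimerin and 0.533, 0.6 and 0.5 in controls, a difference in mean log2 ratio of -1.29 (p = 0.1, two-sided exact permutation test). H2BC11 rose and H2AC11, with 8 to 19 counts a library, was not called (log2 fold change -0.03, SE 0.39). The H2BC4 and H2AC6 pair, with a gap of 218 bases, rose together. H2AC6 had 1.56, 1.25 and 2.08 counts for each H2BC4 count with pristimerin and 1.59, 1.86 and 1.81 in controls, a difference of -0.13 with p = 0.6 in the exact permutation test. The H2BC8 and H2AC8 pair differed by -0.16 (exact permutation p = 0.7) and the H2AC25 and H2BC26 pair by -0.07 (exact permutation p = 1.0). The p-values of these 5 pairs are not adjusted, and in this design none could have been under 0.05, adjusted or not. In the H2BC12 and H2AC12 pair, H2AC12 had at most 0.0194 counts for each H2BC12 count in any library and was not tested.

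**Figure D5:**
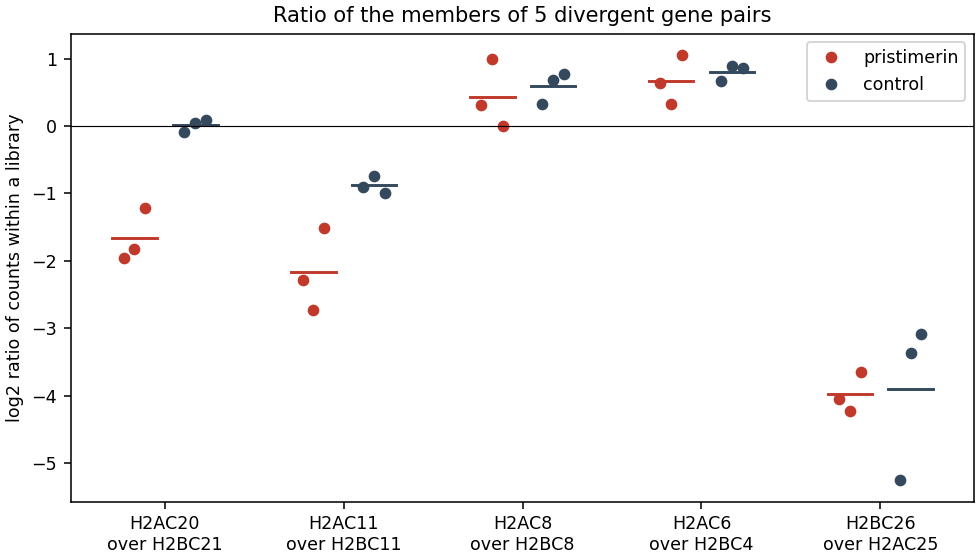
Log2 ratio of the counts of the 2 genes of a head-to-head pair within each library for the 5 pairs with both genes tested, pristimerin left of control; lines are group means. The groups stand apart for H2AC20 over H2BC21 and H2AC11 over H2BC11 and overlap for the other 3 pairs. For H2AC20 over H2BC21 this follows from the levels of the single genes.

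Lengths and polyadenylated forms bear on what these libraries hold. The feature length implied by the deposited counts and FPKM exceeded 1000 bases in 14 members, of which 9 were tested, 3 rose and 0 fell by edgeR, DESeq2 or an unadjusted edgeR p under 0.05. The other 50 members were up to 1000 bases long, with 13 tested, 3 risen and 2 fallen. Of all genes 14.5% rose and 15.1% fell, and the difference between these length classes was not tested. H2BC12 (495 bases), H1-2 (731), H2BC9 (462) and H2AC20 (494) were of the length of a single-exon histone gene, whereas H2BC21 (2224) and H2AC6 (1668) were longer. Of 5 members listed for known polyadenylated forms, H2AC6, H2BC4, H2BC12 and H2BC21 rose. The fifth, H2BC5, had 34, 27 and 35 counts with pristimerin and 25, 27 and 27 in controls, with a log2 fold change of 0.19 (SE 0.27). The summed level of these 5 was 33.7 to 36.2 CPM with pristimerin and 16.2 to 21.3 CPM in controls. H2BC12 supplied most of it in every library, so this sum largely repeats the rise of H2BC12. The list of 5 was chosen with earlier results of these data known. Only H2AC6 and H2BC21 of it are among the 19 members annotated more than 200 bases past the stem-loop. Of those 19, H2AC6 and H2BC21 rose and H2BC9 fell by edgeR. For H2BC9 (462 bases), H2BC8 (489) and H4C5 (412) the implied feature was shorter than the stretch annotated past the stem-loop (1640, 1059 and 1022 bases). Their counts, and the fall of H2BC9, therefore cannot cover that whole stretch. H2AC25, H2BC8, H2BC15, H2BC26, H3C10, H4C5, H4C8 and H4C16 of the 19 were not called, and the others were not tested.

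Other RNAs that lack a usual poly(A) tail were set beside the histone RNAs. Of 10 listed, 4 were in the table, and they summed to 228 to 252 CPM with pristimerin and 482 to 535 CPM in controls. Most of this was NEAT1, a long nuclear RNA with both a tailed and an untailed form, at 209 ± 15 and 460 ± 23 CPM with pristimerin and in controls (SD, n = 3 each). Its log2 fold change was -1.14 (SE 0.07), with an adjusted p of 9.5e-10 by edgeR. MALAT1, whose end is a triple helix, had 35.5 ± 4.5 and 43.2 ± 7.3 CPM with pristimerin and in controls (SD, n = 3 each), with an adjusted p of 0.07 by edgeR. TERC and RMRP, the RNAs of telomerase and of RNase MRP, were under 1 CPM. Because NEAT1 dominates this summed level and has a tailed form, the sum does not measure untailed RNA. The part of untailed RNA in the histone sum was not tested.

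Of the 28 genes listed as making, processing or controlling histone RNA, all were tested. By edgeR 3 rose and 1 fell, beside 14.5% and 15.1% of all genes, and the median log2 fold change was 0.06. The number that rose depended on the setting: it was 6 with DESeq2 and without control replicate 2, and 8 without replicate 2 of both groups. SLBP, which binds the stem-loop and accompanies the RNA to translation, rose to 258 ± 12 CPM with pristimerin, against 197 ± 8.4 CPM in controls (SD, n = 3 each). Its log2 fold change was 0.39 (SE 0.06) with an adjusted p of 0.00014 by edgeR. CASP8AP2, a processing factor of the histone locus body also called FLASH, had 120.0 ± 6.6 CPM with pristimerin and 92.2 ± 8.5 CPM in controls, a log2 fold change of 0.38 (adjusted p 0.00087 by edgeR). HINFP, a transcription factor of H4 genes, had a log2 fold change of 0.26 with an adjusted p of 0.0091 by edgeR, and was not called in 3 of 19 alternatives, among them without pristimerin replicate 1 at 0.07 (adjusted p 0.0012 to 0.091 over all 19). NELFE, a subunit of the negative elongation factor, fell by 0.19 on the log2 scale with an adjusted p of 0.033 by edgeR, and was not called in 7 of 19 alternatives (adjusted p 0.0025 to 0.18 over all 19). The call of NELFE was lost without any 1 of the libraries other than control replicate 2, at adjusted p of 0.084 to 0.18 by edgeR. NPAT, the coactivator of histone transcription, had 37.1 ± 2.2 CPM with pristimerin and 36.9 ± 3.9 CPM in controls, with a log2 fold change of 0.00 (SE 0.09).

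Many histone chaperones and transport factors rose, where 14.5% of all genes did. That share is over all levels: of the 4890 tested genes with a mean under 5 CPM, 3.68% rose. It is therefore higher among genes above that level. Nearly all genes of this list lie there, as do the listed processing and S phase genes. Of 28 listed and tested, 16 rose and 0 fell by edgeR (0 also by DESeq2 and at an unadjusted p under 0.05), with a median log2 fold change of 0.18 beside -0.01 over all genes. SSRP1, a subunit of the H2A and H2B chaperone FACT, had 420.0 ± 0.39 CPM with pristimerin and 328.0 ± 17 CPM in controls, and its partner SUPT16H rose too. SET, another chaperone, had 684.0 ± 48 and 530.0 ± 20 CPM with pristimerin and in controls (SD, n = 3 each). The H3 and H4 chaperones included CHAF1B of the replication-coupled complex CAF-1 (log2 fold change 0.36) and ASF1B (0.28). MMS22L, which acts with TONSL at replication forks, had a log2 fold change of 0.35. CHAF1A (0.23) and NASP (0.16) were called by edgeR at adjusted p of 0.022 and 0.039. The call of CHAF1A was lost in 9 of 19 alternatives (adjusted p 0.00086 to 0.17 over all 19) and that of NASP in 12 (0.0037 to 0.6). Among these, CHAF1A was lost without control replicate 2, control replicate 3 or pristimerin replicate 1 (0.061 to 0.077), and NASP without any 1 library other than control replicate 2 (0.068 to 0.11). CHAF1A and CHAF1B overlap UBXN6 and MORC3 in the annotation, and their counts may include reads of those genes. With cyclic loess scaling the list held 7 that rose and 1 that fell, and with library totals 10 and 1.

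Of the replication-independent histone genes, whose products replace histones outside replication, 12 were tested and 9 were not called. By edgeR 2 rose and 1 fell, beside 14.5% and 15.1% of all genes, and the median log2 fold change was 0.03. MACROH2A1, which encodes a large H2A variant, rose with a log2 fold change of 0.32 (535 ± 16 and 428 ± 5.6 CPM with pristimerin and in controls, SD, n = 3 each). H3-3A, a gene of H3.3, rose with a log2 fold change of 0.23, but 3 of 19 alternatives did not call it (adjusted p 0.00036 to 0.15 over all 19). H2AJ, an H2A variant gene outside the clusters, fell by 0.59 on the log2 scale, with 30.1 ± 3.3 and 45.4 ± 5.3 CPM with pristimerin and in controls (SD, n = 3 each). H3-3B (0.09), H2AZ1 (0.11) and H2AX (-0.07) were not called by edgeR, and the sign of the first pair turned with cyclic loess scaling. H2AZ1 was called without replicate 2 of both groups, an alternative chosen after seeing the data, at a log2 fold change of 0.20 (adjusted p 0.0078, and 0.0078 to 0.89 over all 19), which brought the list to 3 that rose.

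Genes of S phase, the period in which histone genes are normally active, were higher with pristimerin as well. Of 39 listed and tested, 26 rose and 0 fell by edgeR (0 also by DESeq2 and at an unadjusted p under 0.05), where 14.5% of all genes rose and 15.1% fell, with a median log2 fold change of 0.25 beside -0.01 over all genes. Their summed level was 7420 to 7560 CPM with pristimerin and 6480 to 6950 CPM in controls. RFC3, a subunit of the clamp loader, had 102.0 ± 3.6 CPM with pristimerin and 72.1 ± 6.5 CPM in controls, and RRM2, of ribonucleotide reductase, 192.0 ± 9.2 and 137.0 ± 10.0 CPM (SD, n = 3 each). CLSPN, a fork protein, had a log2 fold change of 0.42, E2F2, a transcription factor of S phase genes, 0.45 and CDC45, of the replicative helicase, 0.39. The sliding clamp PCNA (0.34) and thymidylate synthase TYMS (0.31) rose as well, though TYMS overlaps ENOSF1, whose reads may be counted with it. MCM2 (0.22), of the helicase core, was called by edgeR at an adjusted p of 0.025 and lost in 10 of 19 alternatives (0.0017 to 0.25 over all 19), among them without control replicate 2 or 3 or pristimerin replicate 1 or 3 (0.058 to 0.083). With cyclic loess scaling 16 of the 39 rose and 2 fell. The part of S phase genes in the histone sums was not tested.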

How the data were processed

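Poly(A)-selected RNA of 6 THP-1 libraries (3 pristimerin, 3 control) was sequenced with a strand-keeping kit, per the labels' protocols. The deposited table holds whole-number counts and FPKM values per gene and library; the build is hg38, per the submitters' processing notes, and the aligner, counter, annotation release and strand setting are not named there. Counts are unnormalized and the FPKM, made by the authors, are scaled per length and per library total. Members matched the symbol rule in the count table; H1-1, H2AC1, H2BC1, H3C4, H3C14 and H4C7 are not analysed here. The members and all lists were chosen with earlier results of these data known. The list of replication-independent histone genes is not complete, and what it leaves out is not reported here.

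Counts were filtered (filterByExpr, minimum count 10 and total 15; 15305 of 25336 genes), scaled by TMM (factors 0.9702 to 1.0311) and tested with edgeR 4.0.16 (quasi-likelihood, all 6 libraries, no covariate) in R 4.3.3, with Benjamini-Hochberg adjustment over all genes tested and a threshold of 0.05. The fit was tested on simulated data. CPM are counts per 1000000 of the TMM-scaled library size; sums over classes use library totals. Depth was 19057219 to 30568593 counts a library, so 3 counts were 0.0981 to 0.157 CPM, which covers counting error only. Pair ratios were compared by exact permutation (scipy 1.17.1). Named members were those with a mean of at least 5 CPM, those called, and the highest per class in FPKM; in other lists, anchor genes and up to 4 further called genes of at least 5 CPM with the largest change. Alternatives used DESeq2 1.42.0 and limma 3.58.1 (voom, and log2 FPKM with 1 or 0.1 added, mean of at least 0.1 FPKM), other scalings and filters, protein-coding genes alone, a replicate block, and each library left out. Sequences came from RefSeq (GRCh38.p14) and GENCODE release 29.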

Additional observations from a re-analysis of the deposited data

How the results depend on the processing

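The 8 members that rose or fell kept their direction and their call in every alternative that tested them, 19 for H2BC12 and H1-2 and 18 for the others. The ratio of summed member counts was 1.31 and ranged from 1.25 to 1.38 over its 9 alternatives. With a mean of at least 5 CPM required, 3 members were left, of which 2 rose and 0 fell, with a median log2 fold change of 0.53; by construction this filter removes the others. On log2(FPKM + 0.1) and log2(FPKM + 1), which tested 50 members, 7 rose and 4 fell in each; the added ones were H2AC4 (higher) and H2AC13 and H3C13 (lower), all under the count filter. Cyclic loess added H2BC15 (log2 fold change 0.54, adjusted p 0.039). The median log2 fold change of the members was otherwise 0.02 to 0.45, beside 0.23.

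Over all genes 2216 rose and 2313 fell. The number that rose was 1389 with library totals, 1084 with log2(FPKM + 0.1) and 1081 with log2(FPKM + 1); leaving out each library in turn, the number that fell was 1534 to 2329, the lowest without control replicate 3.

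Counts in the small lists moved more, and the cause was not tested. Of the histone mRNA processing and control genes, 3 rose; it was 6 with DESeq2, 5 without a filter on low counts, 11 with the replicate block, 8 without replicate 2 of both groups and 3 to 6 without 1 library, the highest without control replicate 2. The 1 that fell became 0 with DESeq2 and without a filter, 2 with cyclic loess, either FPKM scale, a mean of at least 5 CPM, protein-coding genes alone and without replicate 2 of both groups, 3 with library totals, upper-quartile scaling and the replicate block, and 0 to 2 without 1 library (2 without control replicate 2, 0 without any other). Of the chaperones, 16 rose and 0 fell; it was 7 and 1 with cyclic loess, 10 and 1 with library totals, and 7 rose on either FPKM scale. Of the replication-independent histone genes, 2 rose; it was 1 with cyclic loess and on either FPKM scale. Of the S phase genes, 26 rose and 0 fell; it was 16 and 2 with cyclic loess, 17 rose with log2(FPKM + 0.1) and 16 with log2(FPKM + 1), and 1 fell with the replicate block and without replicate 2 of both groups, and 0 to 1 without 1 library (1 without pristimerin replicate 2).

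Genes near 0 changed sign, none with a call where the sign turned. H2AC25 was 0.09 with cyclic loess, 0.02 without replicate 2 of both groups and -0.12 to 0.03 without 1 library. H3C3 was -0.02 with library totals, -0.06 with log2(FPKM + 0.1), -0.03 with log2(FPKM + 1), -0.005 with upper-quartile scaling and -0.20 to 0.41 without 1 library. H4C1 was -0.01 with DESeq2 and with limma-voom, -0.07 with library totals, -0.15 and -0.13 with log2(FPKM + 0.1) and log2(FPKM + 1), -0.02 with protein-coding genes alone, -0.03 with the replicate block, -0.06 with upper-quartile scaling and -0.29 to 0.31 without 1 library. NPAT was -0.01 with cyclic loess, -0.07 with library totals, -0.06 and -0.05 with log2(FPKM + 0.1) and log2(FPKM + 1), -0.03 with a mean of at least 5 CPM, -0.02 with protein-coding genes alone, -0.06 with upper-quartile scaling and -0.03 to 0.10 without 1 library. With cyclic loess H3-3B was -0.04 and H2AZ1 -0.01, and H2AX was -0.15 to 0.07 without 1 library.

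Replicate numbers were not taken as a pairing: the deviations of same-numbered libraries correlated at 0.098, 0.137 and 0.037, although each library correlated best with its own number. The replicate block called 3150 genes higher and 2948 lower and left the members at 6 and 2. Leaving out replicate 2 of both groups was chosen after seeing the data. Depth limits the 42 untested members, 28 of all members having under 30 counts.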
